A study of Mus musculus with 8 samples.

Results

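Lysosomal hydrolases, lysosomal membrane proteins and subunits of the lysosomal proton pump, 47 genes in all, were followed by RNA-seq in 8 mouse brain libraries. The genes were taken from a fixed list of names and comprise 22 hydrolases, 3 luminal cofactor or transfer proteins, 10 membrane proteins, 9 pump subunits and 3 transcription factors of the lysosome. All 47 have a row among the 54532 genes of the table of PTS + RS and RS, and all 47 among the 28229 genes of the table of RGFP109 and NaCl. The mice were C57BL/6 and the tissue was collected on Day 21. Mice of the PTS + RS group (n = 2 libraries) had a photothrombotic stroke, in which light closes cortical vessels, and restraint stress, whereas mice of the RS group (n = 2) had restraint stress without the stroke. Libraries of both groups carry the label cortex. In the second experiment every mouse had stroke and restraint stress. RGFP109, an inhibitor that the study describes as selective for the histone deacetylases HDAC1 and HDAC3, was injected daily at 60 mg/kg in one arm (n = 2). The study's methods give 2 weeks of injections, while a figure legend gives 21 days. The other arm is labelled NaCl (n = 2). In both of these arms replicate 1 is labelled cortex and replicate 2 amygdala, so that tissue and replicate number cannot be told apart. An age is stated for mice of a behavioural test but not for those sequenced, and whether a library holds 1 mouse or several is not given in the sources used here, so p-values measure the spread between these libraries, which may be technical.

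A lysosome is an acid compartment in which proteins, lipids, glycans and nucleic acids are broken down. Its enzymes, mostly glycosidases, sulphatases, lipases and proteases, work at a low pH that is set by the V-type proton pump, a rotary machine with a membrane sector (V0) through which protons pass and a cytosolic sector (V1) that splits ATP. In brain, all cells hold lysosomes, and microglia, the resident phagocytes, hold many. Tfeb, Tfe3 and Mitf are related transcription factors that bind E-box letters in the promoters of many lysosomal genes. In bulk tissue, more cells of a type and more RNA per cell cannot be told apart.

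Because these factors read E-box letters, the promoters are shown first. RefSeq promoter windows on GRCm38.p6, from 250 bases before to 50 bases after a gene's start, were at hand for 41 of the 47 genes. The palindrome CACGTG stands in the windows of 13 of these 41 genes (31.7%), against 8.09% of 27025 genes with a window. The longer form GTCACGTG, which contains it, was searched on both strands and stands in 10 (24.4%, against 2.55%). Of other letters searched on both strands, TCATGTG stands in 7 genes (17.1%, against 4.31%), and AGAGGAAG, letters that a myeloid factor of the ETS family is known to bind, in 3 (7.32%, against 5.22%). The stretches below were picked to show genes that did and did not change in the PTS + RS group. All are given 5′ to 3′ on the strand of the gene, with CACGTG in capitals, or in Laptm5 the reverse complement of AGAGGAAG.
Lamp1: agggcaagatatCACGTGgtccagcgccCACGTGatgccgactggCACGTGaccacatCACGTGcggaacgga
Naglu: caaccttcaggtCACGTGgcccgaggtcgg
Glb1: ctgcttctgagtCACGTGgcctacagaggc
Mcoln1: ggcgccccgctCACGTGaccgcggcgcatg
Atp6v0b: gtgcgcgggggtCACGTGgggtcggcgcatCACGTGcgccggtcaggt
Laptm5: gcagcctgtggCTTCCTCTtttttgttctg
The Lamp1 stretch (chr8:13159088-13159160, plus strand) holds 4 copies and touches no exon of GENCODE M21. That of Naglu (chr11:101070009-101070038, plus strand) holds 1 copy, and 27 of its 30 bases lie in an exon of a transcript that starts further upstream. Glb1 (chr9:114401018-114401047, plus strand) is shown with 1 copy outside exons. For Mcoln1 (chr8:3500463-3500492, plus strand), all 30 bases lie in an annotated exon, and for Atp6v0b (chr4:117887330-117887377, minus strand) 4 of 48 bases do. All 30 bases shown for Laptm5 (chr4:130913266-130913295, plus strand) lie in an exon of an earlier-starting transcript. Letters in a window are a description and not a measured binding site.

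The counts on genes summed to between 15902013 and 21712033 per library, and libraries of one group differed by more than sampling noise. The spread between replicates, given as the biological coefficient of variation, was 11.4% for PTS + RS and RS but 32.1% for RGFP109 and NaCl. For RGFP109 and NaCl the replicates carry different tissue labels, and the difference between them counts as spread. A few libraries stood apart. Summed over 10 choroid plexus markers, PTS + RS replicate 2 had 222 CPM (counts scaled to the library size) against 2521 to 5556 in the other libraries of its table. All 10 markers were lower in both PTS + RS libraries than in both RS libraries, as were 24.5% of all tested genes. Their median log2 fold change was -1.81, and none was called. In the second experiment, 10 striatum markers summed to 1487 and 1608 CPM in the replicates 2 and to 292 and 287 CPM in the replicates 1, and 12 cortex markers to 1616 and 1397 CPM against 876 and 980 CPM. Of 12 amygdala markers, 9 had a log2 fold change above 0 for replicate 2 over replicate 1, with a median of 0.53, but their sums were 654 and 707 CPM in the replicates 2 and 663 and 1052 CPM in the replicates 1. The marker lists thus did not separate the libraries as labelled, and replicates are called by number. RGFP109 replicate 1 had 2209 CPM of choroid plexus markers, against 182 to 221 CPM in the other 3 libraries of its table. In the PTS + RS and RS libraries no cortex marker was at 0, but neither was any amygdala or striatum marker, so this does not tell the regions apart. The gene S100a5, chosen after its values were seen, had 1131 counts in NaCl replicate 1 and 0 in the other 3 libraries of its table.

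In cortex of the RS group, levels per length (the deposited FPKM, reads per length and library size) spanned a wide range over the 47 genes, with a median of 9.71. Psap, the precursor of the saposins that present lipids to hydrolases, stood highest at 555 ± 33.2 (SD, n = 2). The membrane protein Laptm4a followed at 104 ± 4.50, and with it the pump subunits Atp6v1a (104 ± 3.76), Atp6v1b2 (102 ± 2.11) and Atp6v0d1 (99.4 ± 1.98). The libraries of these 4 neighbours overlapped from one to the next, whereas Psap was above all of them in both libraries. By role, the median FPKM was 83.7 in the pump subunits, 8.90 in the membrane proteins, 7.998 in the hydrolases and 2.27 in the transcription factors. The most abundant hydrolases were Ids (95.4 ± 3.37) and Gaa (85.1 ± 0.0237), which remove sulphate from glycosaminoglycans and glucose from glycogen. At the low end stood Slc11a1 (0.712 ± 0.167), Acp5 (0.149 ± 0.0959) and Atp6v0d2, which is listed at 0 in both libraries.

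The first comparison asked which of these genes differ in cortex when stroke is added to restraint stress. Of the 47 genes, 46 passed the filter on low counts and 12 of them rose in the PTS + RS group at an adjusted p under 0.05 (quasi-likelihood test of edgeR, adjusted by Benjamini-Hochberg over 17581 genes). The same test called 2.96% of all tested genes higher and 0.586% lower. None of the 46 fell, and 23 had an unadjusted p under 0.05, as did 17.9% of all tested genes. The 12 include Atp6v0d2, which passed the filter only through its counts in the PTS + RS libraries and so had to differ. Without it there were 11. DESeq2 called 13 higher and 0 lower (3.4% and 1.06% of all tested genes), and limma-voom 12 and 0 (2.5% and 0.489%). Atp6v0d2 is in the count of higher genes of each fit of this comparison. The median log2 fold change was 0.23 over the 46 genes and 0.00 over all tested genes. In 31 of the 47 genes, Acp5 included, both PTS + RS libraries lay above both RS libraries, and in 5 both lay below. Of all tested genes 25.7% and 24.5% did so. The count moved with single libraries, and so did that over all tested genes. Without PTS + RS replicate 2 it was 22 higher and 3 lower, where 7.69% and 6.96% of all tested genes were called. Without PTS + RS replicate 1 it was 14 and 2 (5.58% and 4.13% of all). Without RS replicate 1 it was 8 and 0 (1.91% and 0.376%), and without RS replicate 2 it was 9 and 0 (1.84% and 0.174%).

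**Figure D1:**
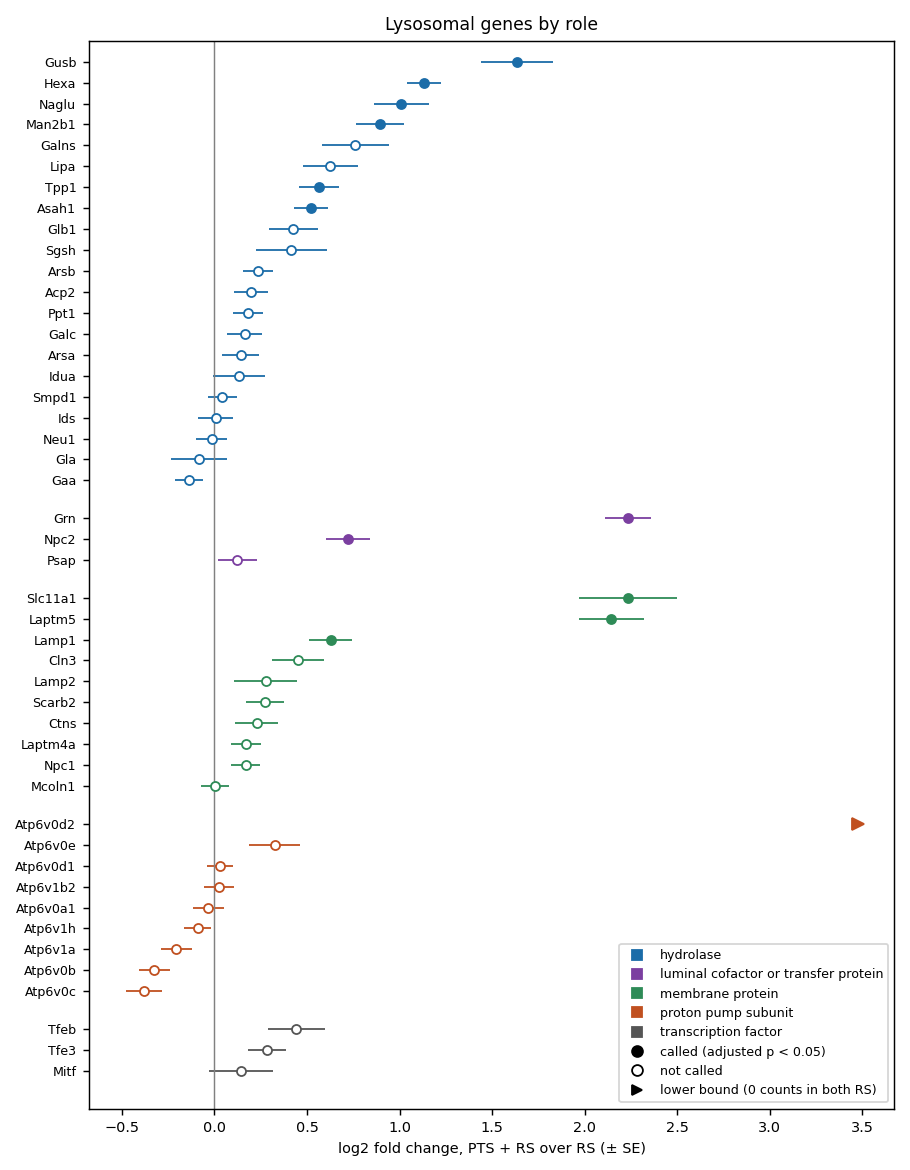
Fitted log2 fold change of PTS + RS over RS with its standard error for the tested lysosomal genes, grouped by role. Filled points passed an adjusted p of 0.05, and the arrowhead marks a lower bound of 11.1-fold for Atp6v0d2. The 8 other pump subunits lie between -0.38 and 0.32, whereas Gusb, Grn, Laptm5 and Slc11a1 lie above 1.6.

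Among the hydrolases, 6 of 21 tested genes rose, and the median log2 fold change was 0.24. Gusb, β-glucuronidase, had 54.8 and 40.2 CPM in the PTS + RS libraries and 17.5 and 13 CPM in the RS libraries. Both PTS + RS values lay far above both RS values, and the log2 fold change of 1.63 ± 0.20 (SE) was the highest of the enzymes (adjusted p = 0.00633, edgeR). Hexa, the α subunit of β-hexosaminidase, which trims gangliosides, had 119 and 103 CPM against 50.05 and 51.2 CPM. It rose by 1.13 ± 0.09 (adjusted p = 0.00152, edgeR), with no overlap. Naglu, an enzyme of heparan sulphate breakdown whose promoter is shown above, had 31.8 and 26.5 CPM against 13.3 and 15.7 CPM. All PTS + RS values were again the higher ones, with a log2 fold change of 1.01 ± 0.15 (adjusted p = 0.0149, edgeR).

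Smaller rises were measured for 3 further enzymes. Man2b1, which removes mannose from N-glycans, had 124 and 95.3 CPM in the PTS + RS libraries and 56.4 and 61.7 CPM in the RS libraries. The groups did not overlap, and the log2 fold change was 0.90 ± 0.13 (adjusted p = 0.0149, edgeR). Limma-trend on FPKM did not call Man2b1 (adjusted p = 0.0624 and 0.0565 with its 2 pseudocounts). Tpp1, a tripeptidyl peptidase lost in a neuronal ceroid lipofuscinosis, had 145 and 119 CPM against 85.5 and 92.8 CPM, a log2 fold change of 0.57 ± 0.11 (adjusted p = 0.0399, edgeR). Asah1, acid ceramidase, had 68.9 and 62.4 CPM against 47.2 and 44.4 CPM, a log2 fold change of 0.52 ± 0.09 (adjusted p = 0.0303, edgeR). In both of these genes every PTS + RS value was above every RS value, but the calls did not hold without RS replicate 1 (adjusted p = 0.181 for Tpp1 and 0.11 for Asah1, edgeR) or without RS replicate 2 (0.0725 and 0.223).

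The other 15 tested hydrolases did not pass. Galns, a sulphatase of keratan sulphate, had 13.8 and 17.9 CPM in the PTS + RS libraries against 8.88 and 9.84 CPM, and Lipa, the acid lipase that frees cholesterol from its esters, had 39.4 and 30.3 CPM against 23.9 and 21.3 CPM. Neither overlapped between the groups, and the adjusted p was 0.0744 for Galns and 0.076 for Lipa (edgeR). At the other end stood Gaa, acid α-glucosidase, with 374 and 370 CPM against 409 and 408 CPM. Its PTS + RS values were the lower ones, with a log2 fold change of -0.14 ± 0.08 (adjusted p = 0.40, edgeR). Gla (α-galactosidase A), Neu1 (a sialidase), Idua, Ids and Smpd1 (acid sphingomyelinase) had overlapping libraries, with log2 fold changes from -0.08 to 0.13. The remaining 7 (Glb1, Sgsh, Arsb, Acp2, Ppt1, Galc and Arsa) were higher in both PTS + RS libraries than in both RS libraries, as were 25.7% of all tested genes. Their log2 fold changes ran from 0.14 in Arsa to 0.43 in Glb1. Acp5, an acid phosphatase of osteoclasts and macrophages, had 30 and 10 counts in the PTS + RS libraries and 3 and 7 in the RS libraries and was not tested.

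Of the luminal proteins, Grn and Npc2 rose and Psap did not pass. Grn, which encodes progranulin, a secreted protein that is cut into granulins in the lysosome, had 315 and 249 CPM in the PTS + RS libraries and 61.5 and 58.2 CPM in the RS libraries. Its lowest PTS + RS value was well above both RS values, and it rose by 2.23 ± 0.12 on the log2 scale (adjusted p = 0.000376, edgeR), a 4.71-fold change. On the genome Grn overlaps Fam171a2 on the other strand, and the use of strand in counting is not stated. Fam171a2 had a log2 fold change of -0.24 (adjusted p = 0.297, edgeR). Glb1, Ppt1, Sgsh, Idua, Arsa, Acp2, Npc1 and Atp6v1h also overlap another gene, and their values are uncertain to that extent. Among those partners Cap1, across from Ppt1, had more counts than the lysosomal gene (18273 against 5997), and Rgs20, across from Atp6v1h, had a log2 fold change of 0.82 (adjusted p = 0.0209, edgeR). Npc2, which carries cholesterol to the membrane protein Npc1, had 102 and 82.5 CPM against 52.5 and 59.1 CPM. No values overlapped, and its log2 fold change was 0.72 ± 0.12 (adjusted p = 0.0229, edgeR), though the adjusted p was 0.0719 without RS replicate 1. For Psap, by far the most abundant of the 47 genes, the libraries had 1732 and 1603 CPM against 1467 and 1594 CPM. The lower PTS + RS value lay just above the higher RS value, and the log2 fold change was 0.12 ± 0.11 (adjusted p = 0.598, edgeR).

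Among the membrane proteins 3 of 10 rose. Slc11a1, a metal transporter of phagosomes, had 14.8 and 10.4 CPM in the PTS + RS libraries and 3.09 and 2.21 CPM in the RS libraries. Its log2 fold change was 2.24 ± 0.27 (adjusted p = 0.00633, edgeR), with no overlap. Laptm5, a lysosomal protein of blood and immune cells, had 162 and 110 CPM against 31.0 and 30.7 CPM. The RS values nearly coincided, both PTS + RS values were higher, and the log2 fold change was 2.15 ± 0.18 (adjusted p = 0.00151, edgeR). Lamp1, one of the main glycoproteins of the lysosomal membrane, had 434 and 343 CPM against 249 and 253 CPM. It rose by 0.63 ± 0.12 without overlap (adjusted p = 0.0365, edgeR), and the call did not hold without RS replicate 1 (adjusted p = 0.146) or RS replicate 2 (0.138).

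Of the 7 membrane proteins that did not pass, 5 were higher in both PTS + RS libraries than in both RS libraries, as were 25.7% of all tested genes. These were Cln3, Scarb2 (the receptor that brings glucocerebrosidase to lysosomes), Ctns (the cystine exporter), Laptm4a and Npc1, with log2 fold changes from 0.17 to 0.45. Lamp2 had 135 and 90.4 CPM in the PTS + RS libraries and 92.1 and 94.2 CPM in the RS libraries, so that 1 PTS + RS library was the highest and the other the lowest. Mcoln1, the calcium channel TRPML1, had 78.1 and 76.6 CPM against 77.9 and 76.5 CPM. Values of the groups alternated, the log2 fold change was 0.00 ± 0.07, and the 95% interval ran from -0.17 to 0.18. Mcoln1 and Lamp1 both hold CACGTG before the start, as shown above.

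The proton pump gave another picture. Subunit d of the V0 sector, part of the central stalk, has 2 genes in mouse. Atp6v0d1, the form found in all tissues, had 180 and 186 CPM in the PTS + RS libraries and 182 and 177 CPM in the RS libraries. The groups overlapped, with a log2 fold change of 0.03 ± 0.07 and a 95% interval from -0.14 to 0.20 (adjusted p = 0.874, edgeR). Atp6v0d2, the form known from osteoclasts and some macrophages, had 40 and 27 counts (2.33 and 1.62 CPM) in the PTS + RS libraries and 0 counts in both RS libraries. Against a floor of 3 counts per library its level with stroke was at least 11.1-fold higher. Since Atp6v0d2 passed the filter only through the PTS + RS libraries, no support is drawn from its call. Even so, the level of Atp6v0d2 in the PTS + RS group was 0.722 FPKM against 101 FPKM for Atp6v0d1.

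None of the 8 other pump subunits passed, and their median log2 fold change was -0.06. The lowest were 2 V0 subunits. Atp6v0c, the proteolipid whose ring carries the protons, had 112 and 133 CPM in the PTS + RS libraries against 157 and 163 CPM. Its PTS + RS values were both the lower ones, and the log2 fold change was -0.38 ± 0.10 (adjusted p = 0.09, edgeR). Atp6v0b, the other proteolipid, had 130 and 146 CPM against 173 and 172 CPM, a log2 fold change of -0.33 with an adjusted p of 0.0904. Both proteolipid genes were called lower without the filter, without PTS + RS replicate 1 and without PTS + RS replicate 2 (adjusted p = 0.00119, 0.0248 and 0.000594 for Atp6v0c, edgeR), and Atp6v0c also with the replicate block (0.036). Atp6v1a, the ATP-splitting subunit, and Atp6v1h were also lower in both PTS + RS libraries, at -0.21 and -0.09, without passing. Atp6v0a1 and Atp6v1b2 overlapped between the groups, and Atp6v0e stood highest of these at 0.32 ± 0.14 (adjusted p = 0.284, edgeR). Summed over all 9 subunits, the libraries had 2304 ± 58.5 CPM in the PTS + RS group and 2460 ± 34.0 CPM in the RS group (SD, n = 2). The 22 hydrolases by contrast summed to 1959 ± 135 and 1701 ± 12.3 CPM.

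The transcription factors did not pass. Tfeb had 14.1 and 14.9 CPM in the PTS + RS libraries and 11.5 and 9.84 CPM in the RS libraries, without overlap and with a log2 fold change of 0.44 ± 0.15 (adjusted p = 0.197, edgeR). Tfe3 had 46.9 and 41.2 CPM against 35.9 and 36.4 CPM, at 0.29, and Mitf overlapped between the groups at 0.14 ± 0.17. Of the 10 genes with a promoter window that rose, Naglu and Lamp1 hold CACGTG. The 13 tested genes with these letters had a median log2 fold change of 0.14, from -0.33 in Atp6v0b to 1.01 in Naglu. The 27 tested genes whose window lacks them had a median of 0.24, and 8 of these rose. TCATGTG stands in 2 of the 10 genes that rose, Tpp1 and Grn, and AGAGGAAG in 2, Gusb and Laptm5. In Gusb, AGAGGAAG lies after the start. These letters stand in 7.32% of the 41 genes with a window, against 5.22% of all genes with one.

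**Figure D2:**
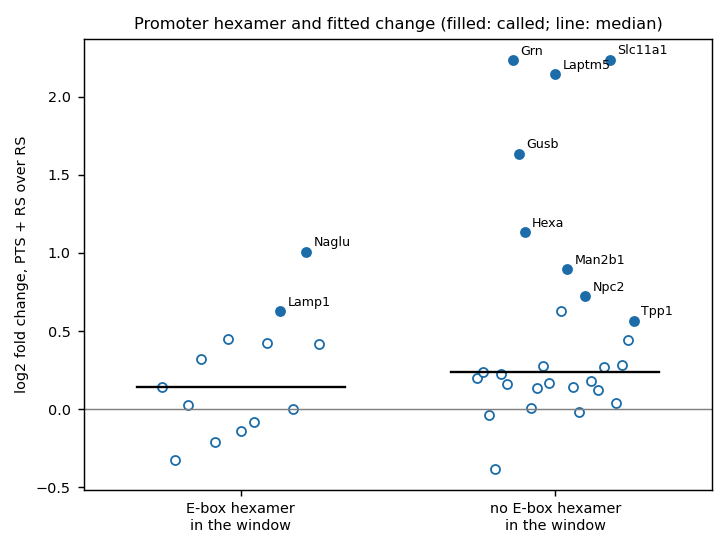
Fitted log2 fold change of PTS + RS over RS for the 40 tested lysosomal genes with a promoter window, split by whether CACGTG stands in it. Filled points passed an adjusted p of 0.05, and lines are medians (0.14 with and 0.24 without the hexamer). The largest changes, those of Grn, Slc11a1 and Laptm5, are in genes without CACGTG, of which Grn holds TCATGTG.

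Genes of the lysosome outside the 47 were taken from 4 further lists. Of 25 other hydrolases tested, 4 rose, and of 24 other membrane proteins 3. Of 12 other pump subunits 1 rose and of 21 sorting and regulation genes 0, where 2.96% of all tested genes rose. None of the listed genes fell, against 0.586% of all tested genes. Largest of the 8 that rose were Slc15a3, an exporter of histidine and peptides (log2 fold change 3.16), Cd68, a glycoprotein of macrophage lysosomes (3.0) and Pld4, an endolysosomal nuclease (2.17). Dnase2a, an acid DNase, had 1.14, Tcirg1, the a3 form of the pump's a subunit, 1.09, and Slc29a3, a nucleoside transporter, 0.84. Tcirg1 had 40.1 ± 4.31 CPM in the PTS + RS group and 18.8 ± 0.403 CPM in the RS group (SD, n = 2), while the a1 form Atp6v0a1 had a log2 fold change of -0.03.

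Markers of cell types were followed in the same comparison. All 20 of 20 microglia markers rose with the stroke, by a median of 2.05 on the log2 scale. Their summed level was 1778 and 1546 CPM in the PTS + RS libraries and 414 and 364 CPM in the RS libraries, and no marker was at 0. Of the 11 genes that rose besides Atp6v0d2, Grn, Laptm5 and Slc11a1 changed by more than this median and the other 8 by less. Of 10 astrocyte markers 3 rose, and their summed level was 6658 and 6045 CPM against 4868 and 4900 CPM. Border macrophage markers summed to 37.2 and 17.6 CPM against 12.8 and 11.2 CPM, and 1 of 7 rose. None of 12 neuronal markers passed, at 7013 and 7531 CPM against 7918 and 7584 CPM. Oligodendrocyte markers summed to 6938 and 7805 CPM against 6333 and 5710 CPM, and none of 10 passed. Endothelial markers summed to 427 and 401 CPM against 365 and 351 CPM, and none of 10 passed. Neutrophil markers were near 0, with a sum of at most 0.817 CPM in any of these libraries and 3 to 7 of 8 markers at 0. The part of other cell types in the results above was not tested.

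**Figure D3:**
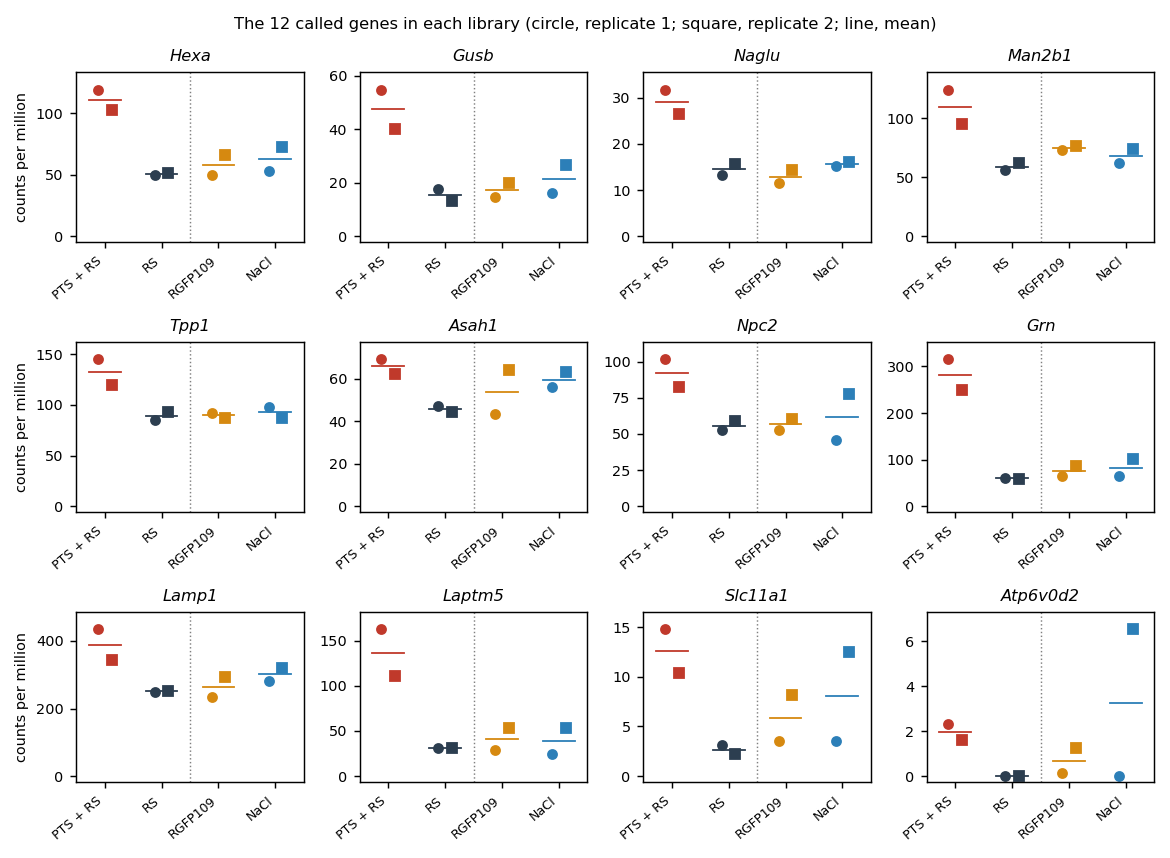
CPM of the 12 lysosomal genes that rose in the PTS + RS group, in each of the 8 libraries. Circles are replicates 1, squares replicates 2 and lines group means, and the dotted line parts the 2 experiments, which were scaled separately. In the right part of most panels the squares lie above the circles, and for Atp6v0d2 NaCl replicate 2 is the highest of all at 6.52 CPM.

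RGFP109 was compared with NaCl in mice with stroke and restraint stress. No lysosomal gene was called, and neither was any of the 17565 tested genes (0% higher and 0% lower, edgeR's quasi-likelihood test). The lowest adjusted p among the 46 genes was 0.9997. At an unadjusted p under 0.05 stood 0 of the 46 genes, against 1.17% of all tested genes, and DESeq2 and limma-voom also called 0. The median log2 fold change of the 46 was -0.06. In 6 of the 47 genes both RGFP109 libraries lay above both NaCl libraries, and in 7 below, against 12.8% and 13.8% of all tested genes. A fit with replicate number as a block called no gene either. The intervals below are from the fit without this block, where the difference between replicates 1 and 2 counts as spread. The wide spread in this experiment leaves them wide. The 95% interval of the log2 fold change ran from -0.88 to 0.60 for Grn, from -1.16 to 1.33 for Laptm5, from -0.73 to 0.36 for Lamp1 and from -0.47 to 0.39 for Atp6v0d1.

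The 6 genes higher in both RGFP109 libraries were Ids, Sgsh, Arsb, Acp2, Atp6v0a1 and Atp6v1a. Ids, the sulphatase lost in Hunter syndrome, had 571 and 577 CPM with RGFP109 and 295 and 467 CPM with NaCl. It had the highest log2 fold change of the 46 tested genes, at 0.59 ± 0.28, and NaCl replicate 1 was much the lowest of the 4. The value was 0.29 without NaCl replicate 1 and 0.97 without NaCl replicate 2. Atp6v1a had 672 and 559 CPM against 467 and 500 CPM, a log2 fold change of 0.35 ± 0.21. The groups did not overlap, but the difference did not pass (adjusted p = 0.9997, edgeR).

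The 7 genes lower in both RGFP109 libraries were Gla, Naglu, Lipa, Cln3, Atp6v0e, Tfeb and Tfe3. Gla had 10.5 and 14.0 CPM with RGFP109 and 19.3 and 15.8 CPM with NaCl, the lowest log2 fold change of the hydrolases at -0.52 ± 0.25. Mitf overlapped between the groups, with 12.4 and 8.88 CPM against 31.6 and 10.3 CPM. NaCl replicate 1 was far above the other libraries, and the log2 fold change was -0.98 ± 0.57, but 0.042 without NaCl replicate 1. Of the genes that rose in the PTS + RS group, Slc11a1 had 3.49 and 8.13 CPM with RGFP109 and 3.58 and 12.5 CPM with NaCl. Its values followed the replicate number more than the treatment, with a log2 fold change of -0.46 ± 0.73. Laptm5 had 29.1 and 53.2 CPM against 24.5 and 53.1 CPM and did so too, at 0.09 ± 0.48. Grn, Psap and Lamp1 overlapped as well, at -0.14 ± 0.29, 0.03 ± 0.23 and -0.19 ± 0.21.

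**Figure D4:**
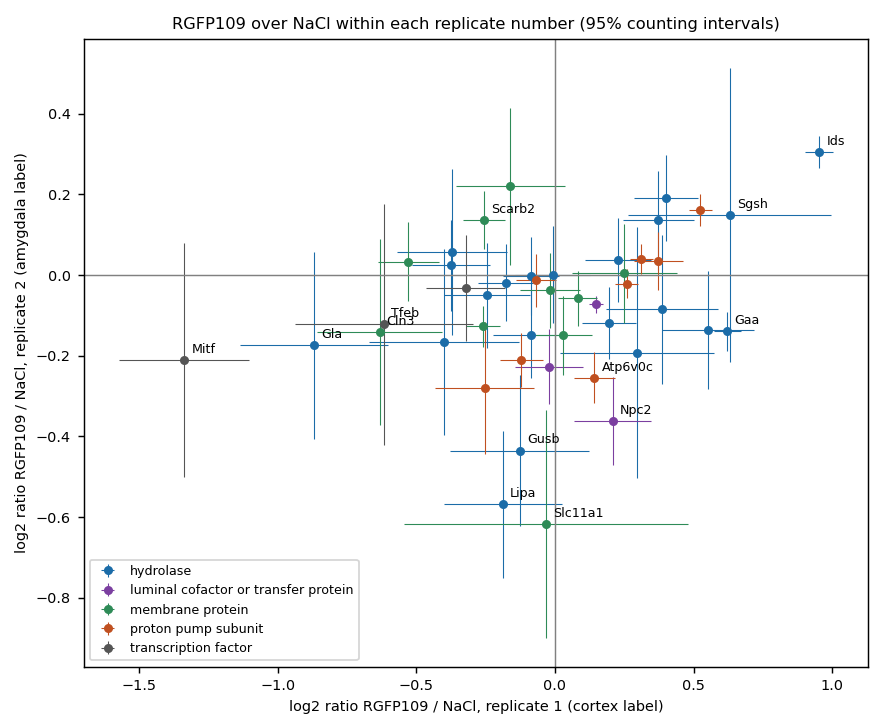
Log2 ratio of RGFP109 over NaCl in replicate 1 and in replicate 2 for 45 lysosomal genes, with 95% counting intervals (Atp6v0d2 and Acp5, with few counts, are left out, and the axes differ in scale). Ids lies highest in both replicates at 0.95 and 0.31, and Mitf is lowest in replicate 1 at -1.34. Ratios spread more widely in replicate 1 than in replicate 2.

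Within replicate 1, 22 of the 47 genes had more CPM with RGFP109 than with NaCl and 25 fewer, and within replicate 2 the numbers were 15 and 32. The median log2 ratio was -0.02 in replicate 1 and -0.07 in replicate 2, and 28 genes went the same way in both. Ids was higher with RGFP109 in both, by 0.95 (95% counting interval 0.90 to 1.00) and 0.31 (0.27 to 0.35). Lamp1 was lower in both, at -0.26 (-0.32 to -0.20) and -0.13 (-0.18 to -0.08). These intervals cover counting error only and not the spread between libraries.

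The replicates of the second experiment were also compared with each other, replicate 2 over replicate 1, with the treatment as a term. None of the 46 genes was called (edgeR), as for all tested genes (0% higher and 0% lower). At an unadjusted p under 0.05 stood 5 of the 46, against 9.15% of all tested genes, namely Slc11a1, Laptm5, Grn, Atp6v0d2 and Mitf. DESeq2 called Atp6v0d2, whose counts lie almost wholly in the replicates 2, and limma-voom called none. Atp6v0d2 passed the filter only through the replicates 2. No support is therefore drawn from its p-value or its calls, here or in the fits below. Of all tested genes, DESeq2 called 0.877% higher and 0.302% lower. Fits with 1 library left out had no treatment term. The calls moved with single libraries, with 10 higher and 3 lower without RGFP109 replicate 1 (15.1% and 13.6% of all tested genes) and 8 higher and 2 lower without NaCl replicate 1 (8.27% and 5.51%). The 12 genes that had risen after stroke, measured here in other libraries, had a median log2 fold change of 0.46 (0.43 without Atp6v0d2). Of them 11 were above 0, Atp6v0d2 included. The other 34 tested genes had a median of -0.01, with 17 above 0.

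Among the genes higher in replicate 2, Slc11a1 had the largest difference after Atp6v0d2, at 1.51 ± 0.32, and both replicates 2 lay above both replicates 1 (adjusted p = 0.393, edgeR). Laptm5 followed at 0.99 ± 0.20 with adjusted p = 0.381, also without overlap. Grn had 85.9 and 101 CPM in the replicates 2 and 64.1 and 65.1 CPM in the replicates 1, at 0.53 ± 0.18 (adjusted p = 0.52, edgeR). Atp6v0d2 had 27 counts with RGFP109 and 120 with NaCl in the replicates 2, and 2 and 0 counts in the replicates 1. Within replicate 2 its log2 ratio of RGFP109 over NaCl was -2.29 (95% counting interval -2.88 to -1.71). Acp5 showed a like order of counts, with 9 and 26 in the replicates 2 and 3 and 2 in the replicates 1. Atp6v0d1 had 188 and 189 CPM in the replicates 2 and 179 and 188 CPM in the replicates 1, at 0.04 ± 0.19.

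Some genes lay lower in replicate 2. Mitf was the lowest, at -1.06 ± 0.35 (adjusted p = 0.51, edgeR). It had 8.88 and 10.3 CPM in the replicates 2 and 12.4 and 31.6 CPM in the replicates 1, the last in NaCl replicate 1. With 1 library left out its value ranged from -1.72 to -0.365. Galns had 7.71 and 8.81 CPM in the replicates 2 and 13.7 and 11.1 CPM in the replicates 1, at -0.58 ± 0.27, without overlap. Cln3 had -0.37 ± 0.25 with overlapping libraries. The highest hydrolase was Gusb, with 19.8 and 26.7 CPM in the replicates 2 and 14.7 and 16.1 CPM in the replicates 1, at 0.58 ± 0.22 and without overlap. Psap had 0.15 ± 0.25. Over the same contrast, 16 of 20 microglia markers were above 0, with a median of 0.60. Their summed level was 694 and 793 CPM in the replicates 2 against 477 and 574 CPM. The sum of 574 CPM, that of NaCl replicate 1, rests in part on the marker Sall1. Within replicate 1 the log2 ratio of RGFP109 over NaCl was -2.88 for Sall1. Of the other microglia markers only Gpr34 also had a ratio below 0 there, at -0.26. Of 10 oligodendrocyte markers 9 were above 0, with a median of 0.54 and sums of 4636 and 5141 CPM against 3235 and 3230 CPM. All 7 border macrophage markers tested were above 0, with a median of 0.85 and sums of 33.4 and 48.5 CPM against 22.1 and 21.1 CPM. The part of these markers in the difference was not tested.

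**Figure D5:**
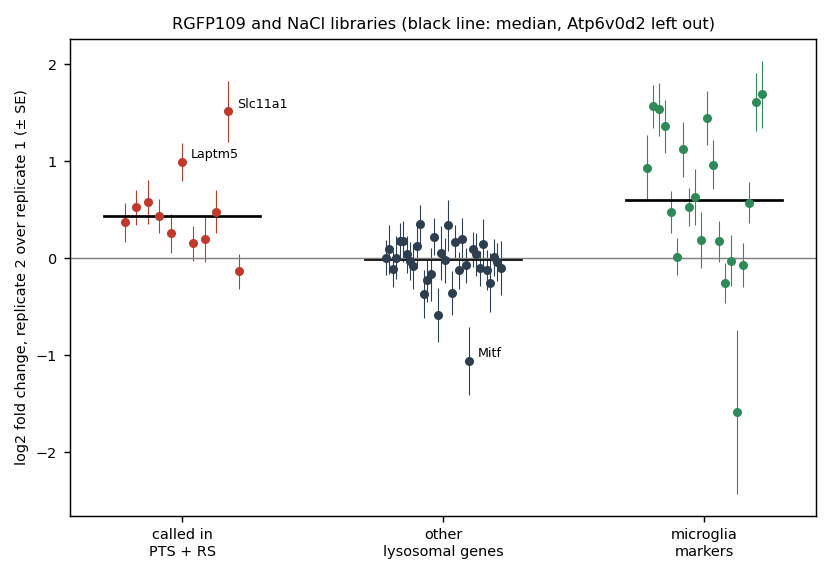
Fitted log2 fold change, with its standard error, of replicate 2 over replicate 1 in the RGFP109 and NaCl libraries. Lysosomal genes that rose in the PTS + RS group (median 0.43 without Atp6v0d2), the other lysosomal genes (median -0.01) and microglia markers (median 0.60) are shown, and none of these lysosomal genes passed an adjusted p of 0.05.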

How the data were processed

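Brain RNA from 8 mouse libraries was sequenced. By the submitters' notes, the authors aligned reads to GRCm38 with STAR (2.4.0), counted reads per gene with HTSeq (0.6.1) and named limma for testing. The labels and the study's methods name different library kits, and the use of strand is not stated. The deposited tables hold raw counts and FPKM per library, and coordinates are those of the tables. Deposited log2 fold changes, p-values and normalised signal columns were not used, among them 8 normalised columns of single libraries.

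Counts were fitted with edgeR 4.0.16 in R 4.3.3 (filterByExpr, TMM, quasi-likelihood test, Benjamini-Hochberg adjustment over all tested genes), separately for each table, which left 17581 and 17565 genes. CPM are on TMM library sizes, and 95% intervals are fold change plus or minus the t quantile times its SE. For log2 ratios of 1 library to another, 2 counts were added. Alternatives were DESeq2 1.42.0, limma 3.58.1 (voom, and trend on log2(FPKM + 1) or log2(FPKM + 0.1)), no filter, a replicate block and leaving out each library. The fits were tested on simulated data. Some genes of the lists are not reported here. By rule, fold changes are given for genes past the threshold, for the highest and lowest gene of each role and for Atp6v0d1 and Atp6v0d2, and those of other genes were added after their values were seen. The genes and lists were chosen with earlier results of these data known. RGFP109 and NaCl libraries are paired by number through the shared tissue label, and deviations of same-numbered libraries correlated at 0.299. Figures were drawn with matplotlib 3.10.9, and tables made with pandas 2.3.3.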

Additional observations from a re-analysis of the deposited data

Results flagged for a closer look

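In 6 lysosomal genes the log2 ratio of RGFP109 over NaCl went opposite ways in replicate 1 and replicate 2, each beyond its 95% counting interval. The difference between the replicates was not tested, since each replicate number holds 1 library per arm. Gaa had 0.62 in replicate 1 and -0.14 in replicate 2. Npc2 had 0.21 and -0.36, Atp6v0c had 0.14 and -0.26, and Smpd1 had 0.19 and -0.12. Psap, the most abundant of the genes, had 0.15 and -0.073. Scarb2 went the other way, with -0.25 in replicate 1 and 0.14 in replicate 2.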

How the results depend on the processing

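With 2 libraries per group, depth (15902013 to 21712033 counts) limits the values less than the spread between libraries does. In a fit with 1 library left out, the lone library of a group is assumed to vary like the others. Calls of Gusb, Hexa, Naglu, Grn, Laptm5 and Slc11a1 in PTS + RS against RS held under all 10 alternatives. Over the fits with 1 library left out, between 8 and 22 genes were higher and between 0 and 3 lower, and the median log2 fold change lay between 0.15 and 0.33. Limma-trend on FPKM called 7 higher with either pseudocount (1.73% and 1.79% of all tested genes) and not Asah1, Lamp1, Man2b1, Npc2 or Tpp1. Without the filter 15 were higher and 2 lower (3.72% and 2.38% of all tested genes). With the replicate block 14 were higher and 1 lower (3.91% and 1.3% of all tested genes), adding Lipa and Galns up and Atp6v0c down. There same-numbered libraries share only a number, and their deviations correlated at 0.0352. For RGFP109 against NaCl the block changed no call, and every alternative called 0 of the genes. In the same comparison across all genes, leaving out NaCl replicate 2 called 15 higher and 78 lower. For replicate 2 over replicate 1, DESeq2 and the fit without a filter each called 1 gene, Atp6v0d2, from which no support is drawn. Of all tested genes they called 0.877% and 0.662% higher and 0.302% and 0.188% lower. Leave-one-out fits, without the treatment term since 3 libraries leave no degree of freedom with it (chosen after seeing the data), called from 0 to 10 genes higher and from 0 to 3 lower, with 10 and 3 without RGFP109 replicate 1 and 8 and 2 without NaCl replicate 1.

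Signs turned for some genes that were not called, and the cause was not tested. In PTS + RS against RS, Mcoln1 had -0.0013 (DESeq2), -0.0044 (no filter), -0.00056 and -0.00061 (limma-trend), and -0.015 to 0.014 with 1 library left out, where Mitf ranged from -0.073 to 0.33. In RGFP109 against NaCl the leave-one-out ranges were -0.43 to 0.22 for Grn, -0.41 to 0.76 for Laptm5, -1.56 to 0.042 for Mitf, -0.10 to 0.18 for Psap and -1.21 to 0.72 for Slc11a1. The fitted value of Atp6v0d2, which rests on few counts, was 0.15 under limma-voom and ranged from -4.61 to 6.72. For replicate 2 over 1, Atp6v1a had 0.19 without RGFP109 replicate 1 and Tfe3 0.13 without NaCl replicate 1. FPKM recomputed from counts moved the median level in the RS group by less than its spread.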
